A study of Macaca mulatta with 12 samples.

Results

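Cells of a tissue hold to one another and to the matrix through a small number of protein families, and 84 genes of these families were followed here across the last days of the primate corpus luteum. The set comprises the integrins, the cadherins with a numbered symbol, the claudins and occludin, the alpha, beta and gamma connexins, the nectins, the selectins and a group of immunoglobulin-type adhesion molecules (the ICAMs, VCAM1, PECAM1 and the junctional adhesion molecule F11R). Members were chosen by gene symbol alone, from the 14132 genes that the array annotation pairs with at least 1 probe set of a single symbol, and CLDN5 was left out. The members have 152 probe sets, 45 of the genes having 1 and 39 having several, and each gene is represented by its brightest probe set over the 12 arrays. Their symbols also bring in 4 genes that are named after integrins without being integrin subunits (ITGB1BP1, ITGB1BP2, ITGB3BP and ITGBL1). ITGA5, CDH2, CLDN11, GJA1, ESAM and JAM2 have no probe set under their own single symbol and are not analysed here.

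The corpora lutea came from female rhesus macaques with normal menstrual cycles, each gland being taken at laparotomy and frozen at once, with 1 array per gland. The mid-late group of 4 was collected on days 10 to 12 after the midcycle LH surge and is the study's baseline. The late functional group of 4 was collected on days 14 to 16 with serum progesterone above 1.5 ng/ml. The late regressed group of 4 was collected on the same days 14 to 16 with serum progesterone below 0.5 ng/ml. No treatment is named for any group, and the animals' ages are not stated in the labels. The arrays are labelled as biological replicates. Whole glands were measured, so fewer cells of a type and less RNA per cell cannot be told apart.

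Integrins are pairs of an alpha and a beta chain that bind matrix proteins or receptors on other cells, and the chain ITGB2 is restricted to leukocytes. Cadherins and nectins join neighbouring cells at adherens junctions, claudins and occludin form the sealing strands of tight junctions, and connexins assemble into gap junction channels through which small molecules pass between cells. Selectins and their immunoglobulin-type partners slow and capture leukocytes on the vessel wall. The corpus luteum is one of the most densely vascularised tissues of the body, and its steroidogenic cells, endothelium and resident leukocytes all carry members of these families.

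Each value is a deposited RMA value on a log2 scale, and groups are summarised as mean ± SD (n = 4 arrays). A difference is one group mean minus another on that scale, and its SE comes from the limma model of all 12 arrays. A member is called where its adjusted p from limma, taken over all 52707 tested probe sets, is below 0.05. The NC level of 4.64 is the 95th percentile of 674 probe sets with the identifier prefix NC, which carry no gene symbol and mostly have low signal. Of the members, 47 had a 12-array mean above it (56%, against 66.7% of all genes). A list of 9 luteal steroidogenic genes, all above the NC level, was chosen with earlier results of these data known. Its mean lay between 10.31 and 10.58 on mid-late arrays. It lay between 9.81 and 10.29 on late functional and between 7.84 and 9.81 on late regressed arrays. Late regressed arrays 2 and 3 had the lowest means of this list, at -2.41 and -2.63 from the mid-late mean, and arrays 1 and 4 stood at -0.67 and -1.31. Array 2 also had a 3′ to 5′ control difference of 2.52, against 0.46 to 0.70 on the other 11 arrays. The called members are therefore also given without these arrays. The mean of the NC probe sets ran from 3.65 to 3.75 on mid-late arrays. It ran from 3.53 to 3.61 on late functional and from 3.48 to 3.58 on late regressed arrays. A small decrease of a dim member in the late groups thus has the same direction as this mean, and the design cannot tell them apart. A fit with this mean as a covariate is given beside the count of called members.

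Late regressed against mid-late glands sets corpora lutea with low serum progesterone against the baseline stage. SELP, CLDN15, F11R, ICAM2 and ITGA3 rose, by 1.45- to 1.83-fold. CLDN3 fell 5-fold, and ITGB7, CDH15, CDH10, CLDN18, NECTIN4 and CDH8 fell by 1.22- to 1.42-fold. The other 72 members did not pass. In all 12 of 84 members were called (14.3%), beside 13.1% of all genes with 1 probe set per gene and 10.0% of all tested probe sets. By direction, 5 members rose (5.95%, against 7.60% of all genes) and 7 fell (8.33%, against 5.51%). After median centring 6 rose and 4 fell. The share of members called was thus close to that of all genes, and the median difference of the members was -0.06 beside -0.02 for all genes. All 5 increases were among the members above the NC level. At an unadjusted p below 0.05 there were 34 members, and 35.8% of all genes. CDH10, CLDN18 and CDH8, which fell, lay at or below it, and 0.807% of the genes there were called higher and 5.59% lower.

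**Figure D1:**
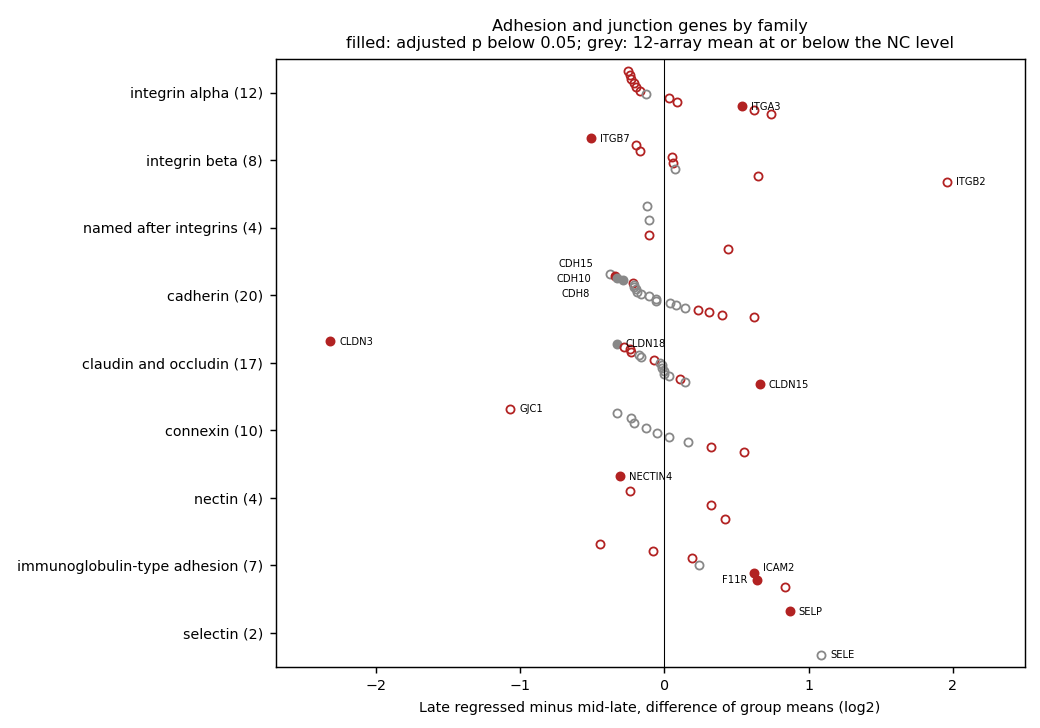
Each circle is 1 of the 84 members, placed on the horizontal axis by its late regressed minus mid-late difference of group means (log2) and on the vertical axis by its family, with the number of members in brackets. Filled circles mark the 12 members with an adjusted p below 0.05, grey ones the 37 members at or below the NC level. CLDN3 at -2.32 lies apart from the other called members, and ITGB2 at 1.96 is the largest difference that was not called.

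The count depended on the fit. It was 0 with each array's NC mean as a covariate, a measure that differs between the groups, and 0 of all 52707 probe sets were then called. It was 9 when each array's 3′ to 5′ control difference was a covariate. With arrays left out it was 4, 4, 5 and 5 without mid-late array 1, 2, 3 or 4, and 5 without late regressed array 2 or array 3. Without late regressed arrays 2 and 3 together it was 2 (CLDN3 and CDH3), when 1.85% of all probe sets were called. Fitting the 2 groups alone left CLDN15 as the single called member. The arrays of the groups did not overlap for 7 members that lay higher and 11 that lay lower, of 84, where 10.8% and 9.96% of all genes did so.

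The integrins comprised 12 alpha and 8 beta chains, and 2 of these 20 were called between late regressed and mid-late glands, beside 13.1% of all genes. ITGA3, the alpha chain of a laminin receptor that pairs with ITGB1, read 5.61, 6.00, 5.86 and 6.05 on mid-late arrays 1 to 4, 6.04, 5.90, 6.02 and 6.12 on late functional and 5.95, 6.79, 6.48 and 6.46 on late regressed arrays. Late regressed array 1 lay within the mid-late range and the other 3 above it. ITGA3 rose from 5.88 ± 0.20 to 6.42 ± 0.35 (difference 0.54, SE 0.15, limma adjusted p = 0.0486). The call was close to the threshold: it held in 1 of 12 fits that each left out 1 array, the one without late regressed array 1, and the adjusted p reached 0.122 in the others. Without late regressed arrays 2 and 3 the difference was 0.32 (adjusted p = 0.272), and it was 0.45 (0.0708) when each array's 3′ to 5′ control difference was a covariate. A second ITGA3 probe set differed by 0.49 and did not pass (limma adjusted p = 0.0789).

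ITGB7, which pairs with alpha chains of gut-homing and epithelium-lodging lymphocytes, read 4.90, 5.34, 5.23 and 5.11 on mid-late, 4.82, 4.81, 4.71 and 5.06 on late functional and 4.84, 4.36, 4.57 and 4.78 on late regressed arrays. Every late regressed array lay below every mid-late one. It fell from 5.14 ± 0.19 to 4.64 ± 0.22 (difference -0.51, SE 0.13, limma adjusted p = 0.0315), ending at the NC level. The call was lost without mid-late array 2, 3 or 4 or late regressed array 2 or 3 (adjusted p between 0.056 and 0.0844). Without both of the last the difference was -0.33 (0.188). Its partner ITGAE averaged 8.21 ± 0.26, 8.36 ± 0.07 and 8.01 ± 0.50 in mid-late, late functional and late regressed glands and was not called (limma adjusted p = 0.56). T and natural killer cell genes, of which 5 of 12 were measured and all 5 lay above the NC level, averaged between 7.68 and 8.04 on mid-late and between 7.16 and 8.12 on late regressed arrays, and their part in the ITGB7 decrease was not tested.

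ITGB2, the shared beta chain of the leukocyte integrins, had the largest difference of any integrin and just missed the threshold. Its values were 5.63, 7.05, 7.01 and 6.64 on mid-late arrays, 7.61, 7.65, 7.78 and 7.08 on late functional arrays and 8.01, 9.21, 10.09 and 6.86 on late regressed arrays. All late functional arrays and 3 of 4 late regressed ones lay above the mid-late range, and late regressed array 4 lay within it. The means were 6.58 ± 0.66, 7.53 ± 0.31 and 8.54 ± 1.41 (late regressed minus mid-late 1.96, SE 0.57, 95% interval 0.71 to 3.20, limma adjusted p = 0.0504). The threshold was passed when late regressed array 1 (0.0439) or 4 (0.0137) was left out and with only probe sets above the NC level (0.037), and without arrays 2 and 3 together the difference was 0.85 (adjusted p = 0.27). The other 3 ITGB2 probe sets differed by 1.17, 0.39 and 0.15, and none was called.

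Of the alpha chains that pair with ITGB2, ITGAD averaged 6.05 ± 0.32 in mid-late and 6.79 ± 0.68 in late regressed glands (limma adjusted p = 0.101), and ITGAM lay at low signal in both (4.32 ± 0.21 and 4.19 ± 0.18). Macrophage genes, of which 13 of 16 were measured and all 13 lay above the NC level, averaged 6.32 to 7.98 on mid-late, 8.04 to 8.22 on late functional and 7.35 to 8.86 on late regressed arrays. On late regressed arrays 1 to 4 they stood 0.69, 0.65, 1.77 and 0.26 above the mid-late mean, and none of the 13 was called in any comparison. Their part in the ITGB2 difference was not tested. ITGAD is named outside the rule for named members, with its values known.

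**Figure D2:**
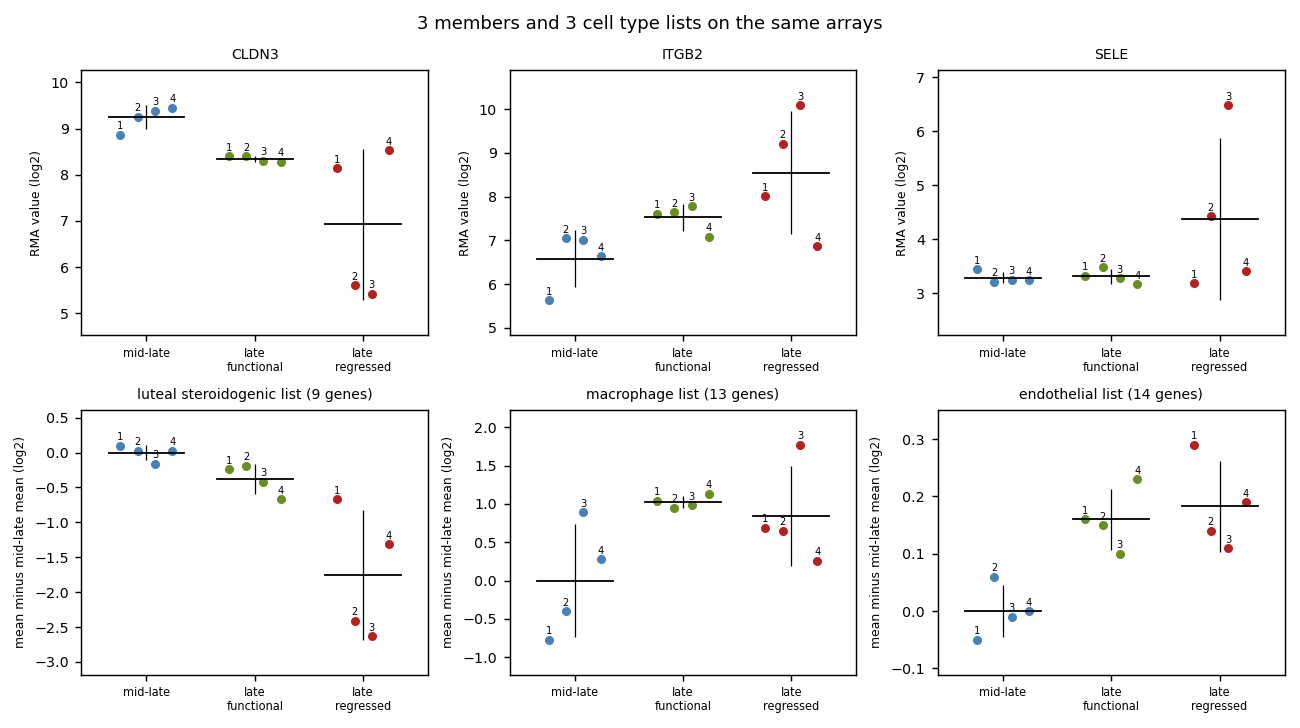
The top panels give the RMA value (log2) of CLDN3, ITGB2 and SELE on each array, and the lower panels the mean of 9 luteal steroidogenic, 13 macrophage and 14 endothelial genes on the same arrays, minus its mid-late mean (log2). Points are arrays with their replicate number, horizontal lines group means and vertical lines ± 1 SD over 4 arrays. Late regressed arrays 2 and 3 hold the lowest values of CLDN3 (5.60 and 5.42) and of the luteal list (-2.41 and -2.63), and array 3 the highest values of ITGB2 (10.09), SELE (6.48) and the macrophage list (1.77).

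No chain of the matrix-binding integrins named next was called with its brightest probe set. ITGB1, the beta chain shared by most matrix receptors, averaged 10.87 ± 0.24, 10.79 ± 0.13 and 10.92 ± 0.41 in mid-late, late functional and late regressed glands. Its late regressed minus mid-late difference was 0.05 with a 95% interval of -0.35 to 0.45. ITGAV, the alpha chain of vitronectin and fibronectin receptors, averaged 6.83 ± 0.07, 6.79 ± 0.14 and 6.86 ± 0.16, and its difference of 0.03 had an interval of -0.18 to 0.23. For these genes the intervals leave out changes of 1.5-fold in either direction. ITGA1, a collagen receptor chain (7.97 ± 0.02 and 7.79 ± 0.38), ITGA2, another (7.85 ± 0.13 and 7.60 ± 0.68), and ITGA6, a laminin receptor chain (10.22 ± 0.11 and 9.99 ± 0.48), were not called either. ITGA6 has 4 probe sets that disagree: the dimmest rose by 0.73 (limma adjusted p = 0.0167) while the other 3 had differences of -0.23, -0.08 and -1.01. ITGB5, a vitronectin receptor chain, averaged 9.24 ± 0.29 against 9.88 ± 0.41 with 3 of 4 late regressed arrays above the mid-late range (difference 0.65, limma adjusted p = 0.0717). It passed when late regressed array 1 was left out. The second ITGB5 probe set differed by 0.71 (limma adjusted p = 0.0731). Of the genes merely named after integrins, ITGB1BP1, whose product binds the tail of ITGB1, averaged 8.75 ± 0.23 and 9.19 ± 0.30 (limma adjusted p = 0.0938), and ITGB3BP, a kinetochore protein gene, 5.74 ± 0.02 and 5.63 ± 0.30 (0.633).

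**Figure D3:**
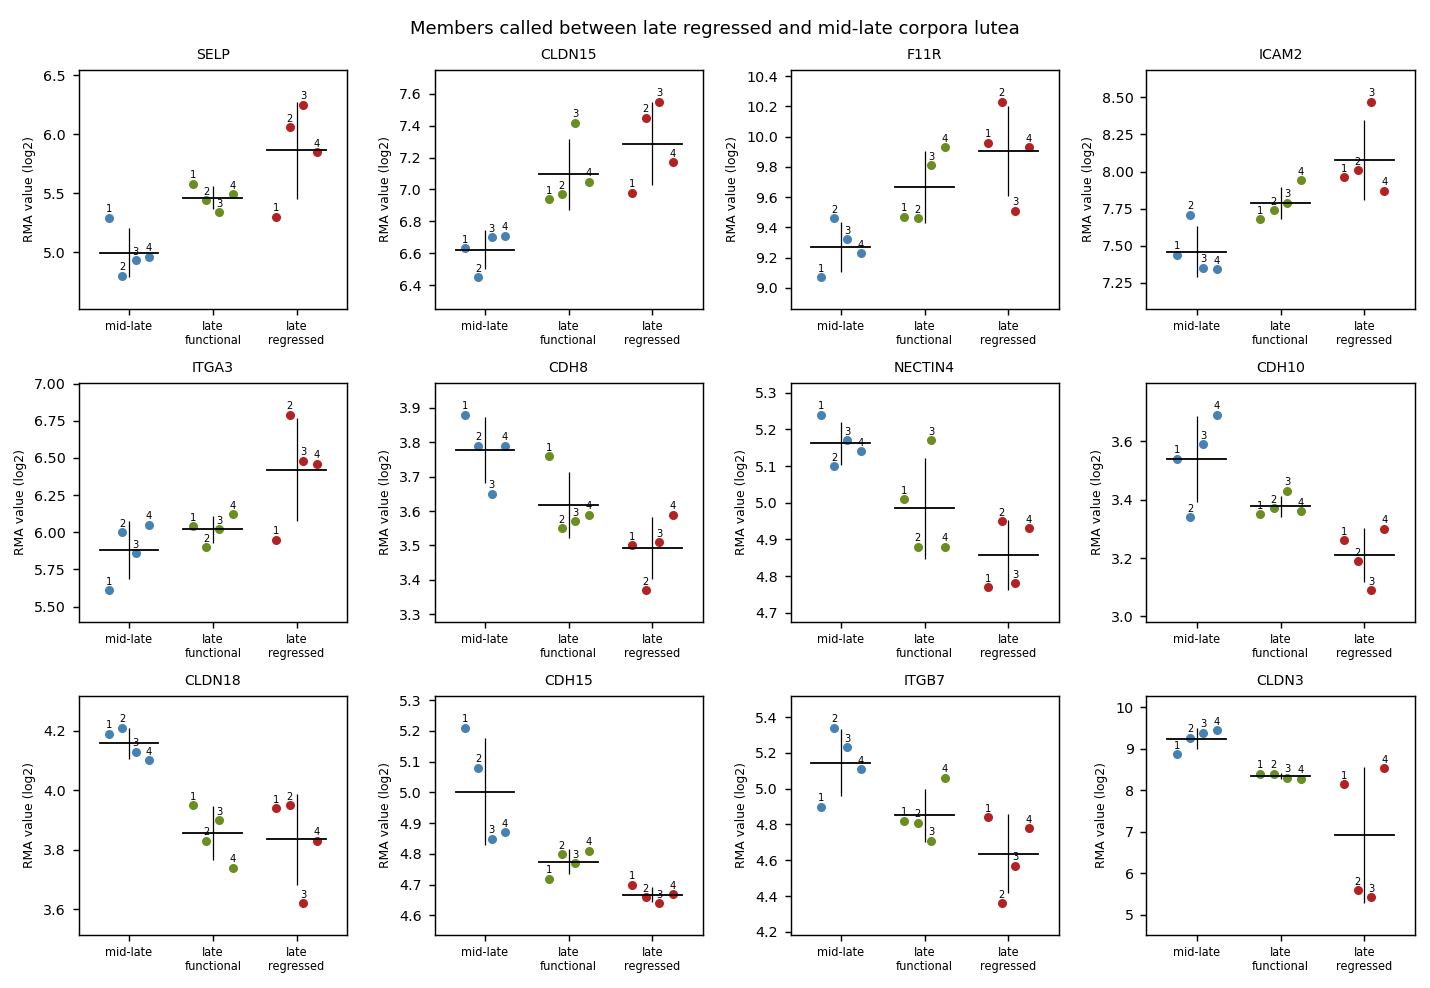
Each panel shows 1 of the 12 members called between late regressed and mid-late glands, ordered from the largest increase to the largest decrease, with the RMA value (log2) of each array on its own vertical scale. Points carry the replicate number, horizontal lines are group means and vertical lines ± 1 SD over 4 arrays. The late functional mean lies between the other means in all 12 panels, and late regressed arrays 2 and 3 lie far below arrays 1 and 4 for CLDN3.

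Among 20 cadherins 3 fell, 0 rose and 17 did not pass, and 14 of the 20 lay at or below the NC level. Of all genes 5.51% fell and 7.60% rose, and of those at or below that level 5.59% fell and 0.807% rose. CDH15, first described in muscle, read 5.21, 5.08, 4.85 and 4.87 on mid-late, 4.72, 4.80, 4.77 and 4.81 on late functional and 4.70, 4.66, 4.64 and 4.67 on late regressed arrays. Both late groups lay wholly below the mid-late arrays, and late regressed arrays lay below late functional ones. The late regressed minus mid-late difference was -0.34 (SE 0.082, limma adjusted p = 0.0287). CDH10 (3.54 ± 0.15 to 3.21 ± 0.09, limma adjusted p = 0.0293) and CDH8 (3.78 ± 0.10 to 3.49 ± 0.09, limma adjusted p = 0.0399), a pair of cadherins best known from neurons, fell at values below the NC level, where a fold is uncertain. CDH15 was called in 8, CDH10 in 7 and CDH8 in 4 of the 12 fits without 1 array. The losses came without mid-late array 1 or 2 or late regressed array 2 or 3 for CDH15 (adjusted p up to 0.0765), and without mid-late array 1, 3 or 4 or late regressed array 2 or 3 for CDH10 (up to 0.0777). CDH8 was lost without mid-late array 1, 2 or 4, late functional array 2 or 3 or late regressed array 1, 2 or 3 (up to 0.0983). Without late regressed arrays 2 and 3 together none of these 3 was called, the differences being -0.32, -0.26 and -0.23 for CDH15, CDH10 and CDH8.

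The cadherins with clear signal were not called. CDH5, the VE-cadherin that holds endothelial cells together, averaged 9.98 ± 0.12, 9.88 ± 0.18 and 10.28 ± 0.38 in mid-late, late functional and late regressed glands. Its late regressed value on array 2 was 10.83, and the other late regressed arrays ran from 9.99 to 10.25 beside a mid-late range of 9.84 to 10.08 (difference 0.31, limma adjusted p = 0.232). CDH11, a cadherin of mesenchymal cells, was highest in late functional glands at 7.94 ± 0.77, against 7.00 ± 0.34 in mid-late and 7.22 ± 0.67 in late regressed ones. Late functional arrays 1 to 3 read 8.16, 8.33 and 8.45 and array 4 read 6.80. A further, dim probe set of CDH11 rose between mid-late and late regressed glands (4.71 to 5.42, limma adjusted p = 0.0394). CDH23, known as the tip link protein of hair cells, averaged 8.91 ± 0.12 and 9.31 ± 0.38 (limma adjusted p = 0.106). Its other probe sets had 12-array means of 4.29, 3.91 and 3.47, below the NC level, and differed by 0.03, -0.09 and -0.20. The clear signal of CDH23 thus rests on the brightest probe set. CDH1, the E-cadherin of epithelia, lay below the NC level in all 3 groups (3.91 ± 0.13, 3.81 ± 0.10 and 3.70 ± 0.20), and CDH13, a cadherin anchored in the membrane without a cytoplasmic tail, lay close to or below it (4.63 ± 0.08, 4.48 ± 0.12 and 4.25 ± 0.35).

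CDH3, the P-cadherin, is named here after its values were seen. It read 7.65, 7.47, 7.57 and 7.95 on mid-late, 7.52, 7.49, 7.82 and 7.27 on late functional and 8.57, 8.37, 7.73 and 8.45 on late regressed arrays, with array 3 of the last group inside the mid-late range. It missed the threshold (difference 0.62, limma adjusted p = 0.0514). A second probe set for the same target, of a cross-hybridising type, was called (0.79, limma adjusted p = 0.02). CDH3 itself was 1 of the 2 members called without late regressed arrays 2 and 3.

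Of 16 claudins and occludin, 1 rose, 2 fell and 14 did not pass, where 7.60% of all genes rose and 5.51% fell. CLDN3, a barrier-forming claudin of epithelia, showed the largest difference of any member. It read 8.87, 9.26, 9.39 and 9.45 on mid-late arrays, 8.40, 8.40, 8.30 and 8.28 on late functional arrays and 8.14, 5.60, 5.42 and 8.53 on late regressed arrays. Both late groups lay wholly below the mid-late arrays, and within the late regressed group arrays 1 and 4 lay near the late functional values while arrays 2 and 3 lay far below. The mean went from 9.24 ± 0.26 to 6.92 ± 1.64 (difference -2.32, SE 0.60, limma adjusted p = 0.0346). A second probe set of the gene fell by 2.14 on the log2 scale (limma adjusted p = 0.0332), with late regressed values of 6.86, 4.30, 4.80 and 7.24. Without arrays 2 and 3 the difference was -0.91, with an adjusted p of 0.0324. The CLDN3 call was lost both when each array's 3′ to 5′ control difference was a covariate (-2.01, adjusted p = 0.0502) and when the 2 groups were fitted alone (adjusted p = 0.0987).

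With 1 array left out, CLDN3 was called in 3 of 12 fits, with adjusted p-values between 0.0502 and 0.0794 in the others. These were the fits without any 1 mid-late array, without late functional array 1, 2 or 3 and without late regressed array 2 or 3. Of 9 luteal steroidogenic genes 4 were called lower, where 5.51% of all genes were. The mean of all 9 differed from mid-late glands by -0.67, -2.41, -2.63 and -1.31 on late regressed arrays 1, 2, 3 and 4. Like CLDN3, this mean was lowest on arrays 2 and 3. Arrays 1 and 4 ranked in opposite order, CLDN3 being lower on array 1 and the luteal mean on array 4. Epithelial genes, of which 5 of 6 were measured and 2 of 5 lay above the NC level, averaged 5.08 to 5.43 on mid-late, 4.77 to 4.92 on late functional and 4.91 to 5.44 on late regressed arrays. Their median late regressed minus mid-late difference was 0.02, and none was called. EPCAM, KRT7 and KRT19 lay below the NC level. KRT8, 1 of the 2 genes above it, stood at 6.95 ± 0.97, 5.22 ± 0.17 and 5.67 ± 0.54 in mid-late, late functional and late regressed glands. It is a single gene, and the list's late regressed minus mid-late median of 0.02 did not follow it. The part of these cells in the CLDN3 decrease was not tested.

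CLDN15, a claudin that forms cation channels, moved the other way. It read 6.63, 6.45, 6.70 and 6.71 on mid-late, 6.94, 6.97, 7.42 and 7.05 on late functional and 6.98, 7.45, 7.55 and 7.17 on late regressed arrays. Every array of both late groups lay above every mid-late array. The increase from 6.62 ± 0.12 to 7.29 ± 0.26 (difference 0.66, SE 0.14, limma adjusted p = 0.0179) was called in 11 of 12 fits without 1 array, the exception being mid-late array 2 (0.0523). It shrank to 0.45 without late regressed arrays 2 and 3 (adjusted p = 0.116). A second, dim probe set did not pass (3.78 ± 0.18 and 3.98 ± 0.24). CLDN18, a claudin of stomach and lung, fell from 4.16 ± 0.05 to 3.83 ± 0.16 below the NC level (limma adjusted p = 0.0344) and lost its call without any 1 mid-late array or without late regressed array 3 (adjusted p up to 0.0852), and its difference was -0.27 without arrays 2 and 3 (0.119). The other CLDN18 probe sets, also below the NC level, differed by -0.23 and -0.01 and were not called (limma adjusted p = 0.121 and 0.943). CLDN1 averaged 5.93 ± 0.61, 6.62 ± 0.14 and 6.05 ± 0.60 in mid-late, late functional and late regressed glands, and the intervals of its differences were wide (-0.57 to 0.80 for late regressed minus mid-late). OCLN lay below the NC level throughout (3.19 ± 0.06, 3.09 ± 0.09 and 3.15 ± 0.09), so these values do not bear on whether it changed. The remaining 12 claudins had late regressed minus mid-late differences between -0.28 and 0.14.

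Of 10 connexins 0 were called by limma in any of the 3 comparisons, with 3, 1 and 0 at an unadjusted p below 0.05 for late regressed against mid-late, late functional against mid-late and late regressed against late functional. In the same order 13.1%, 1.17% and 0.00708% of all genes were called, and 35.8%, 20.1% and 16.1% had an unadjusted p below 0.05. Only 3 connexins lay above the NC level. GJA4 and GJA5, connexins of arterial endothelium, averaged 6.90 ± 0.17 and 7.71 ± 0.43 at mid-late and 7.22 ± 0.40 and 8.27 ± 0.56 at the late regressed stage. Their late functional arrays ran from 7.08 to 7.49 and from 7.80 to 8.24. The late regressed minus mid-late intervals were -0.07 to 0.70 for GJA4 and -0.03 to 1.13 for GJA5. A second GJA5 probe set differed by 0.11. It had its lowest value of all arrays on late regressed array 2 (5.16), where the brightest probe set read 9.03. GJC1, a connexin of smooth muscle and conducting tissue, read 7.41, 7.42, 7.68 and 7.55 on mid-late, 7.54, 7.02, 7.30 and 6.86 on late functional and 7.44, 5.03, 6.35 and 6.96 on late regressed arrays. Late regressed array 1 lay within the mid-late range and the other 3 below it. The difference of -1.07 (SE 0.40, limma adjusted p = 0.0991) was called without late regressed array 1 (-1.40, 0.0261), and was -0.32 without arrays 2 and 3 (0.376). Both other GJC1 probe sets differed by -0.66 and were not called. Smooth muscle and pericyte genes, 5 of 10 measured and all above the NC level, averaged 8.11 to 8.63 on mid-late and 8.16 to 8.73 on late regressed arrays, with 0 of 5 called, and their part was not tested.

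**Figure D4:**
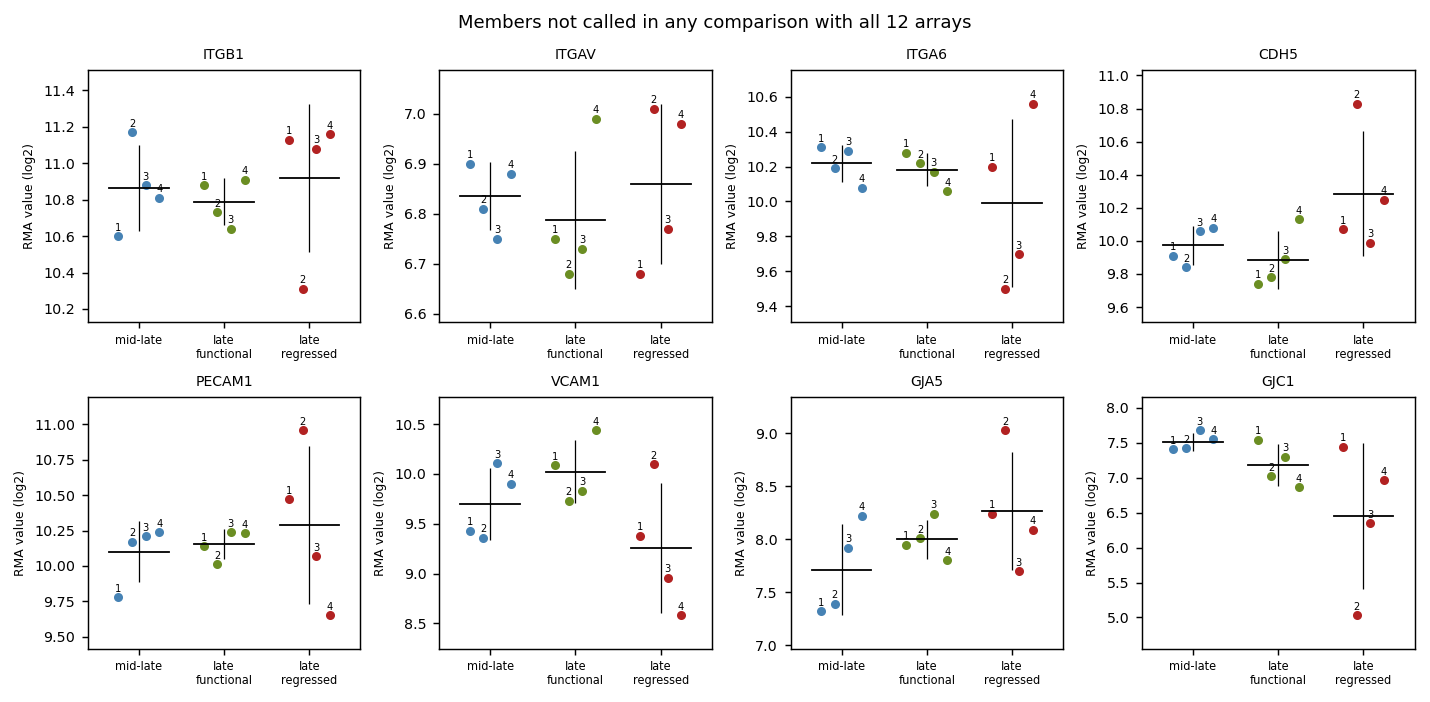
Each panel gives the RMA value (log2) of a member that was not called in any comparison with all 12 arrays, on its own vertical scale. Points are arrays with their replicate number, horizontal lines group means and vertical lines ± 1 SD over 4 arrays. The late regressed arrays spread more widely than the other groups in all 8 panels, with array 2 highest for CDH5 (10.83), PECAM1 (10.96) and GJA5 (9.03) and lowest for ITGB1 (10.31) and GJC1 (5.03).

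Nectins and junctional adhesion molecules help to start adherens and tight junctions between cells. F11R, the junctional adhesion molecule A of endothelium, epithelium and platelets, read 9.07, 9.46, 9.32 and 9.23 on mid-late, 9.47, 9.46, 9.81 and 9.93 on late functional and 9.96, 10.23, 9.51 and 9.93 on late regressed arrays. All late regressed arrays lay above the mid-late ones. It rose from 9.27 ± 0.16 to 9.91 ± 0.30 (difference 0.64, SE 0.16, limma adjusted p = 0.0297), and the difference was 0.68 without late regressed arrays 2 and 3 (adjusted p = 0.0503). The call was lost without mid-late array 1, 3 or 4 or late regressed array 2 (adjusted p up to 0.0799). The gene's other 3 probe sets differed by -0.10, -0.46 and -0.07, none of them called, so the increase rests on the brightest probe set.

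NECTIN4 fell from 5.16 ± 0.06 to 4.85 ± 0.09 (difference -0.31, SE 0.082, limma adjusted p = 0.0385). Its late regressed arrays (4.77 to 4.95) lay below all mid-late ones (5.10 to 5.24). It was called in 5 of 12 fits without 1 array, and lost without any 1 mid-late array, late functional array 1 or late regressed array 1 or 3 (adjusted p up to 0.096). Without late regressed arrays 2 and 3 the NECTIN4 difference was again -0.31 (0.129). NECTIN2 lay higher on all 4 late regressed arrays (7.20 to 7.69) than on the mid-late ones (6.93 to 7.13) and missed the threshold (difference 0.42, limma adjusted p = 0.0521). It was called without late regressed array 1 (0.032) or 4 (0.0307) and with only probe sets above the NC level (0.0499). NECTIN1 was lowest in late functional glands, with values of 5.90, 5.80, 5.85 and 5.31 there against 6.50, 6.19, 6.18 and 6.29 in mid-late and 6.16, 6.04, 6.13 and 5.88 in late regressed ones.

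ICAM2 was called among the ICAMs, PECAM1 and VCAM1, and SELP among the selectins. ICAM2, a ligand of the leukocyte integrins that endothelium carries at rest, read 7.44, 7.71, 7.35 and 7.34 on mid-late, 7.68, 7.74, 7.79 and 7.94 on late functional and 7.96, 8.01, 8.47 and 7.87 on late regressed arrays. All late regressed arrays lay above the mid-late ones. It rose from 7.46 ± 0.17 to 8.08 ± 0.27 (difference 0.62, SE 0.13, limma adjusted p = 0.0181) and was called in all 12 fits without 1 array. The probe set is of a type shared between transcripts, and the 2 other ICAM2 probe sets differed by 0.27 and 0.15 without a call. SELP, the selectin that endothelium and platelets store and release to the surface, read 5.29, 4.80, 4.93 and 4.96 on mid-late, 5.58, 5.44, 5.34 and 5.49 on late functional and 5.30, 6.06, 6.25 and 5.85 on late regressed arrays. Late regressed array 1 exceeded the highest mid-late array by a small margin (5.30 against 5.29) and the other 3 by more than 0.5. SELP rose from 4.99 ± 0.21 to 5.87 ± 0.41 (difference 0.87, SE 0.18, limma adjusted p = 0.0154) and was also called in all 12 fits without 1 array. Its single probe set is of the same shared type as that of ICAM2, so no second probe set bears on it. Without late regressed arrays 2 and 3 together neither was called (ICAM2 0.45, adjusted p = 0.074; SELP 0.58, adjusted p = 0.0873).

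Not every endothelial adhesion gene did the same. PECAM1 averaged 10.10 ± 0.22, 10.15 ± 0.11 and 10.29 ± 0.56 in mid-late, late functional and late regressed glands (late regressed minus mid-late 0.19, interval -0.30 to 0.68), and its other 2 probe sets differed by 0.12 and 0.06. VCAM1, a ligand of integrins on lymphocytes and monocytes, read 9.38, 10.10, 8.96 and 8.58 on late regressed arrays beside 9.43, 9.36, 10.11 and 9.90 on mid-late and 10.09, 9.73, 9.83 and 10.44 on late functional ones (late regressed minus mid-late -0.45, limma adjusted p = 0.334). ICAM1, the inducible counterpart of ICAM2, lay at 4.09 ± 0.21, 4.11 ± 0.14 and 4.33 ± 0.51, with 5.09 on late regressed array 3 as its single value above the NC level. SELE, a selectin made by activated endothelium, lay between 3.16 and 3.48 on all mid-late and late functional arrays and at 3.18, 4.42, 6.48 and 3.41 on late regressed arrays 1 to 4. Only array 3 exceeded the NC level, and without arrays 2 and 3 the difference went from 1.09 to 0.01 (limma adjusted p = 0.205 and 0.982).

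A list of 14 endothelial marker genes that holds none of these members, all above the NC level, averaged 7.54 to 7.65 on mid-late, 7.69 to 7.82 on late functional and 7.70 to 7.88 on late regressed arrays. The list was chosen with earlier results of these data known. Between late regressed and mid-late glands 4 of 14 were called higher (TEK, ERG, SOX17 and CLEC14A), where 7.60% of all genes were. The other 10 did not pass, and the median difference of the list was 0.06. Without late regressed arrays 2 and 3 none of the 4 called genes was called (limma adjusted p between 0.0555 and 0.14). The list's median was 0.20 for late functional minus mid-late and -0.09 for late regressed minus late functional. Platelet genes, 4 of 6 measured and 2 of these above the NC level, stood at 0.27, 1.24, -0.43 and -0.39 from the mid-late mean on the 4 late regressed arrays in order, with PPBP and GP1BA below the NC level. On those arrays neutrophil genes stood at 0.43, 0.57, 0.75 and -0.20, with 5 of 6 below the NC level and S100A8 called higher (difference 2.40, limma adjusted p = 0.0233). The other 5 neutrophil genes did not pass, and the median late regressed minus mid-late difference of the 6 was -0.18. Without late regressed arrays 2 and 3 the S100A8 difference was 1.53 (limma adjusted p = 0.141). The part of these cells in the selectin and ICAM values was not tested. ICAM4, the ICAM of red cells, chosen after its values were seen, read 6.26, 7.76, 8.21 and 6.29 on late regressed arrays against 6.16 to 6.54 on mid-late ones (limma adjusted p = 0.158). The erythroid list had 2 of 5 genes measured and 0 called.

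Genes that work with the members were read from 5 lists: integrin adhesion sites, adherens junctions and desmosomes, tight junction scaffolds, other channels, and ligands of integrins and selectins. The lists had 21, 17, 14, 6 and 8 measured genes in this order. Between late regressed and mid-late glands 11 of these genes were called, beside 13.1% of all genes. Without late regressed arrays 2 and 3, 0 of these 11 were called, when 1.85% of all probe sets were. Of 21 integrin adhesion site genes 3 rose, 0 fell and 18 did not pass. FERMT3, the kindlin that activates integrins in blood cells, rose from 5.87 ± 0.34 to 7.62 ± 1.21 (limma adjusted p = 0.0377), with late regressed values of 6.59, 8.22, 9.03 and 6.63 that were highest on the same arrays as ITGB2. Without late regressed arrays 2 and 3 its difference went from 1.75 to 0.74 (adjusted p = 0.0954). LIMS2 and the adaptor PXN rose by 0.31 each (limma adjusted p = 0.0387 and 0.0452). Of 17 adherens junction and desmosome genes 3 rose and 14 did not pass. CTNND1, the catenin that stabilises cadherins at the membrane, rose from 7.39 ± 0.20 to 8.02 ± 0.16 (limma adjusted p = 0.0106). PKP4, a related armadillo protein, rose by 0.58 (limma adjusted p = 0.0269). DSP, which links desmosomes to intermediate filaments, rose from 5.80 ± 0.50 to 7.10 ± 0.54 (limma adjusted p = 0.0187), with a late functional mean of 5.08 below both.

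TJP1, the scaffold that gathers claudins at tight junctions, rose from 9.81 ± 0.10 to 10.59 ± 0.32 (limma adjusted p = 0.0206), while the polarity gene PARD6A fell from 4.93 ± 0.17 to 4.31 ± 0.15 (limma adjusted p = 0.00839) and the other 12 of 14 tight junction scaffold genes did not pass. Of 6 other channel genes PANX2, a pannexin, fell by 0.41 (limma adjusted p = 0.0197) and GJD4, a connexin outside the member families, fell by 0.31 below the NC level (limma adjusted p = 0.0426). Of 8 integrin and selectin ligands the single called gene was VTN, vitronectin, which fell from 6.41 ± 0.45 to 5.68 ± 0.32 (limma adjusted p = 0.0497). The medians of the 5 lists were 0.18, 0.06, -0.03, -0.15 and 0.45 in this order, beside -0.02 for all genes. In late functional against mid-late glands none of the genes of these lists was called.

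Late functional against mid-late glands compares the later days with the baseline where serum progesterone had stayed above 1.5 ng/ml. Of 84 members 0 were called by limma, 18 had an unadjusted p below 0.05 (20.1% of all genes did), and 1.17% of all genes were called. The smallest adjusted p was that of NECTIN1, which was 0.58 lower in late functional glands (6.29 ± 0.15 and 5.71 ± 0.27, limma adjusted p = 0.0637). CLDN3 averaged 8.34 ± 0.07 against 9.24 ± 0.26 (difference -0.90, limma adjusted p = 0.446) and CLDN15 7.10 ± 0.22 against 6.62 ± 0.12 (0.47, limma adjusted p = 0.115). The arrays of these groups did not overlap for 5 members that lay higher (CLDN15, F11R, GJA4, ITGB2 and SELP) and 7 that lay lower (CDH15, CLDN3, CLDN7, CLDN18, ITGA1, ITGA2B and NECTIN1), beside 10.4% and 8.50% of all genes. CLDN7 and ITGA2B are named here from these values.

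The spread of the late regressed arrays enters this comparison through the shared fit. With late regressed arrays 2 and 3 left out, CLDN3 (adjusted p = 0.0119), CLDN18 (0.0395), NECTIN1 (0.0426) and CLDN15 (0.0457) were called, when 4.59% of all probe sets were. Fitting mid-late and late functional arrays alone called these 4 and SELP, when 5.09% of all probe sets were called. The late functional mean lay between the other 2 group means for all 12 members called between late regressed and mid-late glands, as it did for 90.3% of all genes so called. Both comparisons use the same mid-late arrays.

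Late regressed against late functional glands sets glands with low serum progesterone against glands from the same days with higher levels. Of 84 members 0 were called by limma and 10 had an unadjusted p below 0.05 (16.1% of all genes did), while 0.00708% of all genes, a single gene, were called. CLDN3 had the largest difference, -1.42 with a 95% interval of -2.73 to -0.12 (limma adjusted p = 0.384), and the smallest adjusted p was 0.187, for CDH3 (difference 0.75). For ITGB2 the difference was 1.01 (interval -0.24 to 2.26) and for SELP 0.40 (0.02 to 0.79). For ICAM2, F11R and CLDN15 it was 0.29, 0.24 and 0.19. CDH10 and CDH15 lay lower on every late regressed array than on any late functional one, 2 of 84 members, where 3.28% of all genes did so. No member lay wholly higher, against 2.63% of all genes. Without late regressed array 1, SELP (0.59, adjusted p = 0.0466) and ITGA3 (0.56, adjusted p = 0.0472) were called, when 1.75% of all probe sets were.

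Among themselves the members followed the arrays as genes in general did. The median SD over members was 0.135, 0.112 and 0.188 in mid-late, late functional and late regressed glands, and over all genes it was 0.135, 0.128 and 0.206. The SD was largest in the late regressed group for 51 of 84 members (60.7%, against 58.9% of all genes). The widest late regressed spreads were those of CLDN3 (SD 1.64), SELE (1.51) and ITGB2 (1.41). The 68 member probe sets that were not the brightest of their gene had 5 calls between late regressed and mid-late glands, 3 higher and 2 lower. They belonged to CDH11, CDH3, ITGA6, CLDN3 and CLDN9, and CLDN3 was the single gene among these with more than 1 probe set called. CLDN9 is named here from its values.

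**Figure D5:**
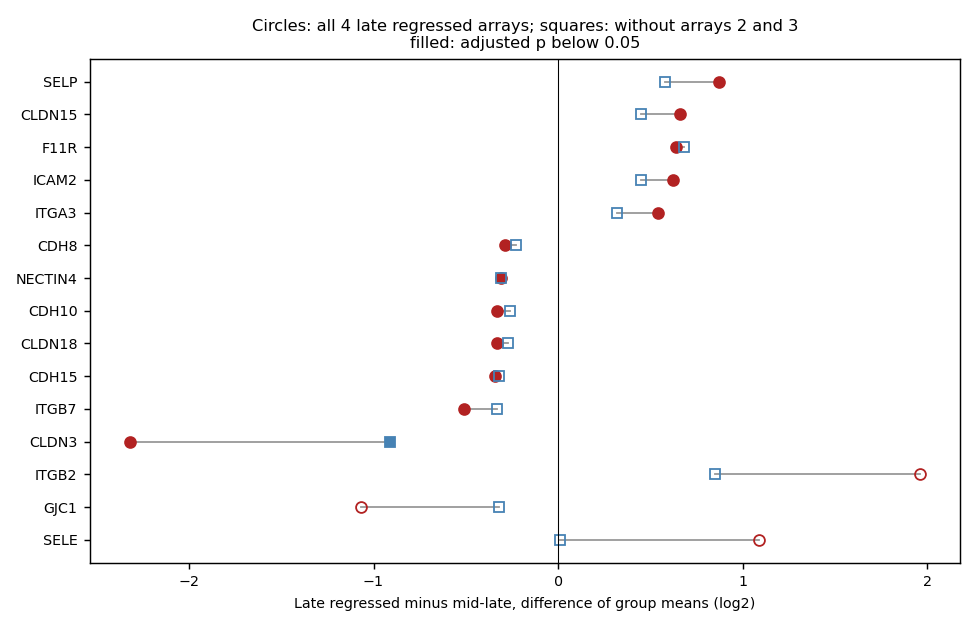
For the 12 called members and for ITGB2, GJC1 and SELE, circles give the late regressed minus mid-late difference (log2) with all 4 late regressed arrays and squares the difference without arrays 2 and 3; filled symbols have an adjusted p below 0.05. CLDN3 moves from -2.32 to -0.91, ITGB2 from 1.96 to 0.85, GJC1 from -1.07 to -0.32 and SELE from 1.09 to 0.01, whereas F11R (0.64 and 0.68) and NECTIN4 (-0.31 in both) keep their size.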

How the data were processed

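Each of 12 rhesus corpora lutea gave RNA for 1 one-colour Affymetrix array, 4 in each of 3 groups taken from the sample titles. The deposited values are log2 values that the authors made with RMA, per the submitters' processing notes, which name no version or setting. Where RMA equalises the arrays' distributions, a change in overall RNA is hidden. The number of arrays limits the precision.

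The table holds 52865 probe sets, of which 158 array controls were left out. Symbols came from the platform annotation (24956 probe sets with exactly 1). Of 84 members, 82 were found by Entrez ID in a current RefSeq table and 0 changed symbol. The lmFit and eBayes functions of limma 3.58.1 (R 4.3.3) fitted the 3 group means over all 12 arrays without covariate, with Benjamini-Hochberg adjustment over 52707 probe sets within a comparison. Intervals are 95% intervals of that fit. The scripts were tested on simulated data. The labels name no batch or date.

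Named members were all called ones, a panel of 30 genes (24 measured) and the 2 brightest of each family, with up to 4 called genes per partner list. The members, lists, rule and alternatives were chosen with earlier results of these data known. The alternatives were other normalizations, filters, priors, covariates and weights, other choices of probe set, and fits with arrays left out.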

Additional observations from a re-analysis of the deposited data

Results flagged for a closer look

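Within groups of 4 arrays, 1 array can lie farther from the nearest other than Dixon's 95% limit allows. Of 114 groups of named members 5 held such an array, where chance alone gives about 5% of groups. In late regressed glands, array 2 was low for ITGB1 (10.31, others 11.08 to 11.16) and ITGA1 (7.22, others 7.94 to 8.04), and array 3 was high for ICAM1 (5.09, others 3.98 to 4.14). In mid-late glands, array 1 was low for PECAM1 (9.78, others 10.17 to 10.24) and ITGB1BP1 (8.40, others 8.86 to 8.87).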

How the results depend on the processing

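For late regressed against mid-late glands the 12 called members became 1 when these groups were fitted alone, 5 with array weights, 2 without late regressed arrays 2 and 3, and 0 with each array's NC mean added as a covariate, a measure that also differs between the groups. Leaving out 1 array gave 4 to 18. It was 9 with the 3′ to 5′ covariate (CLDN3, ITGA3 and CDH8 lost), 11 with a trended robust prior, 13 with probe sets averaged per gene and 10 without cross-hybridising or shared probe set types, where SELP has no probe set and ICAM2 is not called. The replicate block gave 12, of which 9 were shared: CDH8, ITGB7 and NECTIN4 were lost and ITGB2, NECTIN2 and GJA10 gained. Deviations of same-numbered arrays correlated between -0.12 and 0.30, so the numbers were not taken to pair samples. The split of 5 higher and 7 lower became 8 and 4 with only probe sets above the NC level, 6 and 4 after median centring and 3 and 6 after renewed quantile normalization. For late functional against mid-late glands the count of 0 became 5 when these groups were fitted alone, 3 with array weights, 1 with probe sets averaged per gene (NECTIN1) and 4 without late regressed arrays 2 and 3, and stayed at 0 without any 1 array and with the replicate block. For late regressed against late functional glands it was 0 with each of these alternatives and 0 to 2 without 1 array. No called member changed direction under any alternative, but F11R went to 0 with the mean over its probe sets. Low signal limits 37 members, whose differences may be understated.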
